A study of Homo sapiens with 6 samples.

Results

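The 9 genes followed here encode actin-binding or scaffold proteins of focal adhesions and stress fibers, and were measured in cells labelled OVCAR3, an ovarian cancer line: ACTN1, ACTN4, FLNA, FLNC, VCL, TLN1, ZYX, PXN and LIMA1. They were taken by symbol from a table of read counts, where each of the 9 matched a single row of the 19973 genes listed, and all 9 had enough reads to be tested. The libraries came from these cells carrying a control short hairpin (shNC, labelled with the WT genotype, 3 libraries) or a hairpin against NUF2 (shNUF2, 3 libraries). NUF2 is a subunit of the NDC80 complex, which holds spindle microtubules to the kinetochore. Both groups were stable lines selected with puromycin. The labels name a single hairpin per group, and they do not say whether the libraries of a group came from separate cultures, so that p-values measure only the spread between these libraries. The question of the design was which genes differed after NUF2 knockdown.

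Focal adhesions are the places where integrins join the extracellular matrix to actin filaments inside the cell. Talin binds the integrin tail and actin, vinculin strengthens that link, and paxillin and zyxin gather further proteins at the site. Alpha-actinins, filamins and LIMA1 hold filaments together in bundles or networks. Many genes for actin-binding proteins are known targets of serum response factor (SRF), which binds a DNA motif called the CArG box, together with cofactors that sense free actin. TEAD factors, which act with YAP, bind a motif called MCAT, and the GC box is a common promoter motif bound by Sp1.

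RefSeq listed 15 transcription start sites for the 9 genes in build GRCh38.p14, and the window from 250 bases before to 50 bases after each was searched on both strands. The CArG box was found in 2 of the 15 windows, against 1.29% of 35116 windows of all genes. The MCAT core (CATTCC, or GGAATG on the other strand) was found in 5 of 15 windows against 14.0%, and the GC box (GGGCGG or CCGCCC) in 10 of 15 against 45.0%. These are matches of letters only, and which start sites were used in these cells was not measured. The stretches with the CArG box of ACTN1 and FLNA, and with the MCAT core of FLNC, the gene with the largest fold change of the 9, are shown with the motif in capitals. The ACTN1 stretch is chr14:68977678-68977787 on the minus strand, the FLNA stretch is chrX:154374669-154374778 on the minus strand, and the FLNC stretch is chr7:128830253-128830358 on the plus strand.
ACTN1: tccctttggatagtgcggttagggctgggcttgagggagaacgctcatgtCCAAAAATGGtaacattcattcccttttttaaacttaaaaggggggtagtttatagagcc
FLNA: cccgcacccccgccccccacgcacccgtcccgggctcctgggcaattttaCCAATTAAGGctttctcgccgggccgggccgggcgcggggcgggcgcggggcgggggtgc
FLNC: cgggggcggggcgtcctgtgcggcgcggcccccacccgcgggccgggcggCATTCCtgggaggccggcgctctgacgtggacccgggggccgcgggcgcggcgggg

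The CArG box of ACTN1 lay at positions -171 to -162 from one of its 4 listed start sites, and an MCAT core lay at -154 to -149 from the same start, without overlap between the motifs. The CArG box of FLNA lay at -94 to -85 from its single listed start, in a window that also overlaps an exon of the noncoding gene AC245140.3. The MCAT core of FLNC began at -103. VCL, PXN and LIMA1 held the other MCAT cores, at -171, -67 and -16 from a start, and a GC box was found in at least 1 window of all 9 genes.

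The libraries held 13057534 to 16995452 reads on genes. For NUF2 itself, the shNC libraries held 903, 1096 and 1092 reads and the shNUF2 libraries 281, 290 and 384, a log2 fold change of -1.51 (SE 0.08, edgeR adjusted p = 2.17e-15). Of the markers of an epithelial ovarian carcinoma line, KRT8, KRT18, MSLN, MUC16 and PAX8 were well above 0 in every library. EPCAM was low at 44 to 91 reads. CDH1, KRT19 and WT1 were near 0, with at most 33, 8 and 7 reads in any library. These low levels go against what is usual for an epithelial line, the identity of the cells was not tested further, and they are called OVCAR3 here as labelled.

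All 9 genes were higher with shNUF2. In bulk RNA, more cells of a type and more RNA per cell cannot be told apart. Every one passed an adjusted p of 0.05 in edgeR's quasi-likelihood test, and none was lower, at an adjusted or an unadjusted p. Of the 12874 genes tested, 33.9% passed in the upward direction and 33.8% in the downward direction. The 9 log2 fold changes ran from 0.33 for ACTN4 to 1.69 for FLNC with a median of 0.62, whereas the median over all genes tested was -0.01. The fold threshold, a log2 fold change beyond 1 with an unadjusted p under 0.05, was passed by 3 of the 9, FLNC, ACTN1 and LIMA1, against 9.41% of all genes upward and 4.16% downward. The 3 shNUF2 libraries lay above the 3 shNC libraries for each of the 9 genes, as they did for 35.2% of all genes tested, with a further 35.4% apart in the downward direction and 70.6% in either. An exact two-sided permutation test of 3 libraries against 3 cannot go below p = 0.10, and each of the 9 genes gave that value.

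**Figure D1:**
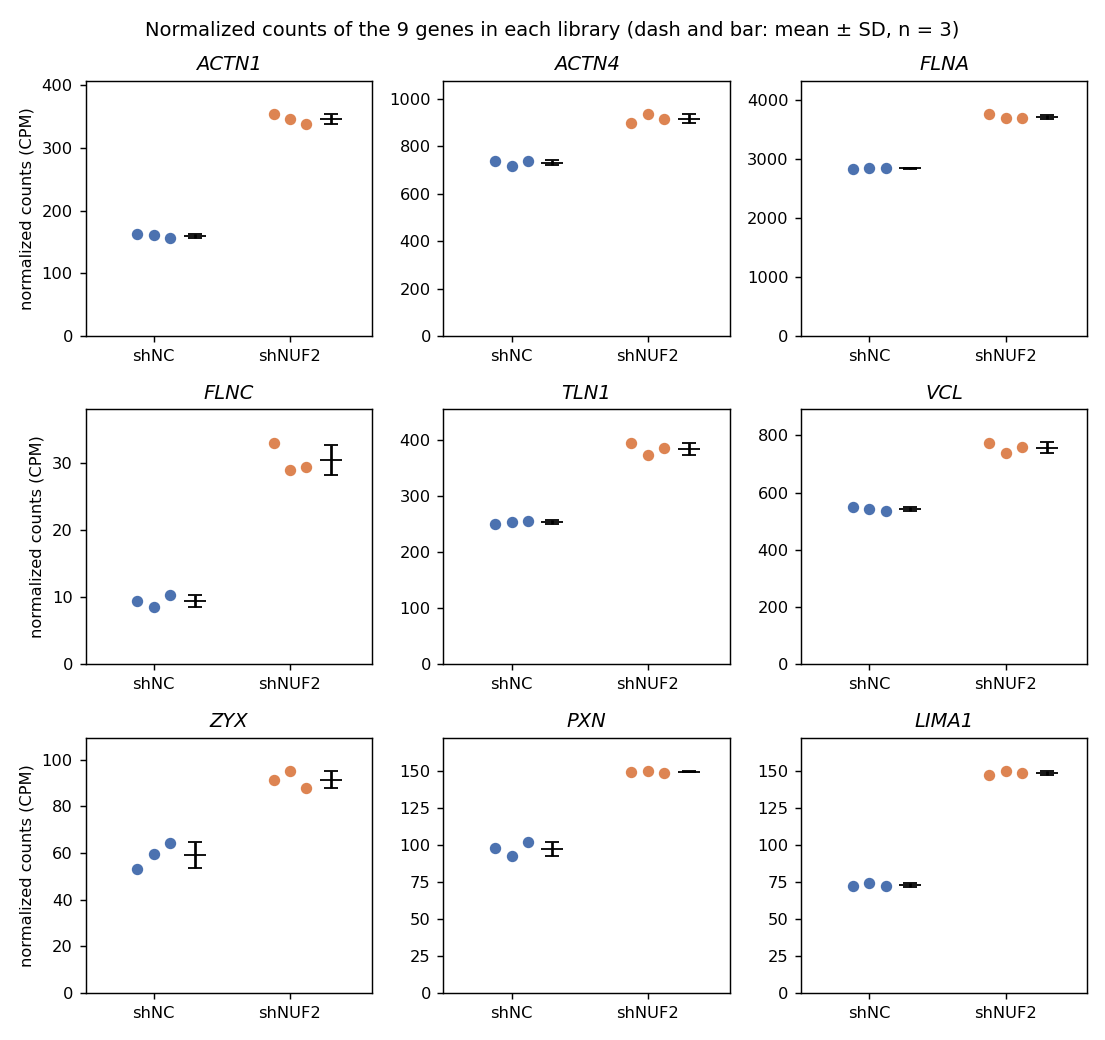
Normalized counts (CPM after TMM scaling, vertical axis from 0) of the 9 genes, one panel per gene, with a point for each shNC and shNUF2 library and the mean ± SD of each group of 3 beside them. The shNUF2 libraries lie above the shNC libraries in every panel, by the widest ratio for FLNC, at 30.5 against 9.43.

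Among the filament cross-linkers, the alpha-actinin ACTN1 (ENSG00000072110, GRCh38 chromosome 14, 68874128 to 68979440, minus strand) was among the genes past the fold threshold. Its reads numbered 2314, 2563 and 2686 in the shNC libraries and 4766, 4492 and 5090 in the shNUF2 libraries. As normalized counts, which are CPM after TMM scaling of library sizes, that was 160 ± 3.36 against 346 ± 7.58 (mean ± SD, n = 3 per group). The lowest shNUF2 library, at 338 normalized counts, was far above the highest shNC library, at 163, and the log2 fold change was 1.11 (SE 0.04, edgeR adjusted p = 5.20e-18).

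ACTN4 (ENSG00000130402, chromosome 19, 38647649 to 38731589, plus strand), the other alpha-actinin of nonmuscle cells, changed least of the 9 genes. Its normalized counts were 737, 719 and 738 with shNC and 899, 936 and 917 with shNUF2. The groups did not overlap, and the log2 fold change was 0.33 (SE 0.04, edgeR adjusted p = 4.09e-08). On the opposite strand ACTN4 shares 868 exon bases with CAPN12, which had only 103 to 163 reads per library.

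The muscle alpha-actinins ACTN2 and ACTN3 had at most 7 reads in any library and were not tested. The alpha-actinin signal was thus shared between ACTN1 and ACTN4, and the balance between them moved. The ratio of ACTN1 to ACTN4 reads was 0.221, 0.223 and 0.212 with shNC and 0.393, 0.369 and 0.369 with shNUF2, a difference of 0.79 on the log2 scale (exact permutation p = 0.10, the smallest possible with 3 libraries per group). In FPKM, which divides reads by gene length and library total, ACTN1 made up 11.1% of the family sum with shNC and 17.8% with shNUF2.

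FLNA (ENSG00000196924, chromosome X, 154348524 to 154374634, minus strand) encodes the filamin that joins actin filaments into networks in most cell types. It was the most abundant of the 9, at 264 ± 2.67 FPKM with shNC and 338 ± 1.07 with shNUF2. Its normalized counts were 2822, 2850 and 2837 with shNC and 3754, 3693 and 3699 with shNUF2. Although the log2 fold change was only 0.39 (SE 0.04, edgeR adjusted p = 4.17e-10), the gap between the groups was wide beside the spread within them. Of the summed increase of the 9 genes in normalized counts, 49.5% came from FLNA.

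FLNC (ENSG00000128591, chromosome 7, 128830406 to 128859274, plus strand) encodes the filamin best known from striated muscle. It was the lowest of the 9 and had the largest fold change, at 134, 136 and 178 reads in the shNC libraries against 446, 377 and 444 in the shNUF2 libraries. In FPKM it went from 1.03 ± 0.0981 to 3.26 ± 0.207, a log2 fold change of the counts of 1.69 (SE 0.11, edgeR adjusted p = 2.06e-13). With the FPKM values tested as log2(FPKM + 1), a scale that understates changes of low genes, the log2 fold change of FLNC was 1.07. Other markers of striated muscle were scarce, with a summed level of 0.371 to 0.538 FPKM over 6 markers with shNC and 0.430 to 0.689 with shNUF2. The only one of them with enough reads to be tested, TTN, was lower (log2 fold change -0.73, SE 0.11, edgeR adjusted p = 1.75e-06), and the part of these markers in the FLNC result was not tested.

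The balance between FLNC and FLNA moved as well. The FLNC to FLNA read ratio was 0.00334, 0.00299 and 0.00365 with shNC and 0.00881, 0.00785 and 0.00798 with shNUF2, a difference of 1.31 on the log2 scale (exact permutation p = 0.10).

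Talin and vinculin carry the integrin linkage to actin. TLN1 (ENSG00000137076, chromosome 9, 35696948 to 35732195, minus strand) had 250, 254 and 256 normalized counts with shNC and 395, 373 and 385 with shNUF2. The 2 groups were well apart, with a log2 fold change of 0.60 (SE 0.04, edgeR adjusted p = 1.28e-12). Its paralog TLN2 went the other way, from 89 to 101 reads per library with shNC to 50 to 57 with shNUF2 (log2 fold change -0.60, SE 0.19, edgeR adjusted p = 0.0075). TLN1 made up 98.6% of the summed talin FPKM with shNC, so the talin sum followed it, from 26.4 to 38.7 FPKM.

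VCL (ENSG00000035403, chromosome 10, 73995193 to 74121363, plus strand), the gene of vinculin, had 550, 543 and 536 normalized counts with shNC and 774, 736 and 758 with shNUF2. All 3 shNUF2 libraries exceeded all 3 shNC libraries, with a log2 fold change of 0.48 (SE 0.04, edgeR adjusted p = 4.89e-11). VCL shares 1109 exon bases with AP3M1 on the opposite strand, and AP3M1 was lower with shNUF2 (log2 fold change -0.27, SE 0.05, edgeR adjusted p = 1.32e-05). Whether reads of these overlaps were assigned by strand is not stated.

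**Figure D2:**
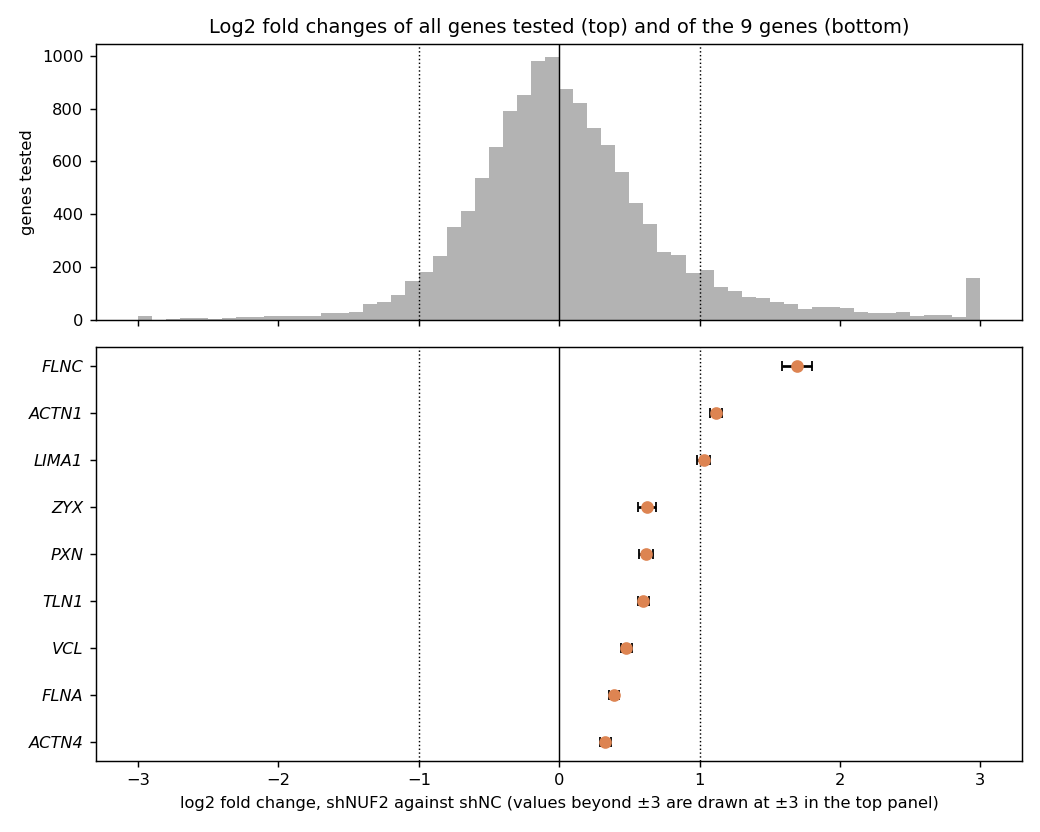
Log2 fold changes (shNUF2 against shNC) as a histogram of all genes tested (top, number of genes) and for the 9 genes (bottom, points with bars of 1 SE), with dotted lines at 1 and -1. All 9 points lie to the right of 0, from 0.33 for ACTN4 to 1.69 for FLNC, and FLNC, ACTN1 and LIMA1 lie beyond the dotted line.

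The 3 LIM domain genes were also higher with shNUF2. LIMA1 (ENSG00000050405, chromosome 12, 50175788 to 50283546, minus strand), which encodes the actin bundling protein also called EPLIN, went from 1025, 1186 and 1239 reads in the shNC libraries to 1987, 1945 and 2232 in the shNUF2 libraries. Its normalized counts were 72.8 ± 1.24 and 148 ± 1.12 (n = 3 per group), without overlap. The log2 fold change was 1.03 (SE 0.05, edgeR adjusted p = 2.26e-16), just inside the fold threshold, and it was 0.99 when scaled by library totals alone.

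ZYX (ENSG00000159840, chromosome 7, 143381295 to 143391111, plus strand) encodes zyxin, which gathers at adhesions and along strained stress fibers. Its shNC libraries were scattered, at 53.3, 59.4 and 64.4 normalized counts, and the shNUF2 libraries were at 91.1, 95.0 and 87.9. There was no overlap between the groups, with a log2 fold change of 0.63 (SE 0.06, edgeR adjusted p = 1.43e-09).

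PXN (ENSG00000089159, chromosome 12, 120210439 to 120265771, minus strand) encodes paxillin, the adhesion scaffold that binds kinases and vinculin. The shNC libraries held 1386, 1472 and 1746 PXN reads and the shNUF2 libraries 2013, 1944 and 2236. Its mean was 97.0 ± 4.71 normalized counts with shNC and 149 ± 0.470 with shNUF2. The groups did not overlap, and the log2 fold change was 0.62 (SE 0.05, edgeR adjusted p = 1.25e-11). PXN shares 918 exon bases with the antisense gene PXN-AS1, which was not analysed here.

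The zyxin family was mixed. Among zyxin relatives, TRIP6 was slightly higher (log2 fold change 0.22, SE 0.05, edgeR adjusted p = 0.000473), LPP was at 0.12 (SE 0.06, adjusted p = 0.0974), and AJUBA, LIMD1 and WTIP, which are known as inhibitors in Hippo signaling, were lower. AJUBA reads numbered 1976, 2476 and 2524 in the shNC libraries and 976, 887 and 1090 in the shNUF2 libraries, a log2 fold change of -1.05 (SE 0.05, edgeR adjusted p = 1.17e-15). LIMD1 was at -0.48 and WTIP at -0.89. ZYX therefore made up 21.6% of the summed zyxin family FPKM with shNC and 33.2% with shNUF2, while AJUBA went from 29.8% to 14.3%. The family sum itself was 84.8 ± 3.66 and 83.2 ± 2.21 FPKM, with overlapping libraries.

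**Figure D3:**
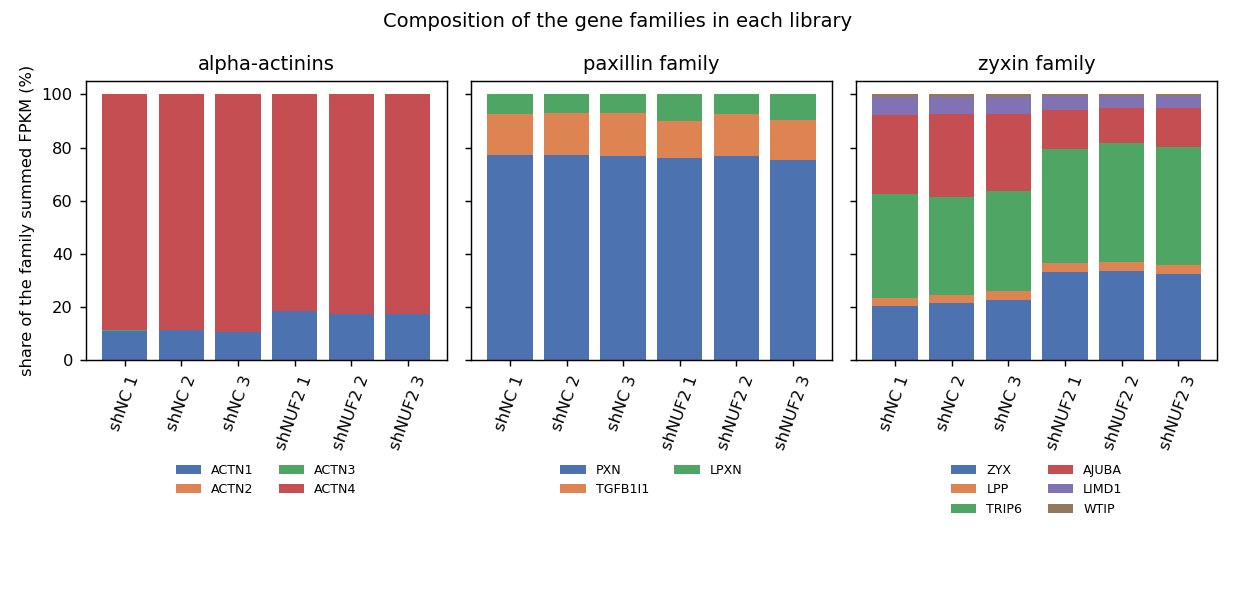
Share of each gene in the summed FPKM of its family (percent), as a stacked bar for each of the 6 libraries, in the alpha-actinins, paxillin family and zyxin family. On average ACTN1 goes from 11.1% to 17.8% of the alpha-actinins and ZYX from 21.6% to 33.2% of the zyxin family, while PXN takes 77.1% and 76.0% of the paxillin family.

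In the paxillin family, TGFB1I1, which encodes Hic-5, was higher by 0.56 (SE 0.10, edgeR adjusted p = 3.34e-05) and LPXN, which encodes leupaxin, by 0.97 (SE 0.21, edgeR adjusted p = 0.00023), both on the log2 scale. PXN was by far the most abundant of the 3. Across all paralogs tested, 4 of 9 were higher, 4 were lower and 1 was not called, shares near the 33.9% higher and 33.8% lower of all genes tested.

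Levels between genes were compared in FPKM. With shNC the order from high to low was FLNA, ACTN4, VCL, TLN1, ZYX, ACTN1, PXN, LIMA1 and FLNC, and the libraries of neighbors in this order did not overlap. With shNUF2, ACTN1 stood above ZYX, at 32.1 ± 0.571 against 27.6 ± 1.23 FPKM, and LIMA1 stood above PXN, at 23.2 ± 0.391 against 19.7 ± 0.204 FPKM. The other 5 genes kept their places. The less abundant genes had the larger fold changes, with a Spearman correlation of -0.83 between the mean FPKM of the 6 libraries and the log2 fold change over the 9 genes and -0.05 over all genes tested, given as a description because the points share libraries. The 9 genes together took 0.482% ± 0.00296 of all reads with shNC and 0.645% ± 0.00233 with shNUF2 (n = 3 per group).

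Genes of the same machinery were then counted in lists that fit the pathway. Over 125 genes in 8 lists, the paralogs included, 117 were tested, and 74 were higher, 20 lower and 23 not called by adjusted p, beside 33.9% higher and 33.8% lower of all genes tested. The median log2 fold change was 0.40, and 15 were higher and 2 lower past the fold threshold, beside 9.41% and 4.16% of all genes. The actin, myosin II and tropomyosin list also held CNN3, which encodes a calponin. Of the 19 genes tested in this list, 16 were higher by edgeR's adjusted p. None had a log2 fold change under 0, the lowest being 0.03. CNN3 (1.47), TPM4 (1.47), MYH9 (1.32) and MYL9 (1.06) had the largest log2 fold changes. MYH9 encodes the nonmuscle myosin heavy chain and MYL9 a light chain of the motor that pulls on stress fibers, while TPM4 is a tropomyosin.

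The list of LIM and PDZ-LIM genes of stress fibers also held PALLD, which encodes the cross-linker palladin, not a LIM protein. Of the 13 genes tested in this list, 10 were higher and 1, PALLD (-0.32), was lower. The largest increases were those of FHL2 (1.64), PDLIM2 (1.21), CSRP2 (1.11) and CRIP2 (1.08). Of 29 genes for filament assembly and severing, 19 were higher and 4 lower. Both counts stand beside 33.9% higher and 33.8% lower of all genes tested. Within the ERM family, which ties the membrane to actin, MSN (1.55) and EZR (1.24) were higher and RDX (-0.50) was lower. TMSB10 (1.12) and CORO1C (1.06) were also higher, and DSTN (-0.32) and PFN2 (-0.27) were lower.

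Among genes that act closer to the integrin, calls went both ways. Of 11 tested genes of the kindlin, KANK and ILK-PINCH-parvin list, 3 were higher, LIMS2 (0.95), FERMT2 (0.71) and FERMT1 (0.49), and 5 were lower, including KANK1 (-0.85), PARVB (-0.68) and PARVA (-0.60), with a list median of -0.31, and these shares were near the 33.9% and 33.8% of all genes. FERMT1 and FERMT2 encode kindlins, which activate integrins beside talin, and KANK1 encodes a talin-binding protein of the adhesion rim. Of 22 scaffolds and kinases, 12 were higher and 4 lower, beside the same shares of all genes, with EVL (1.16), NEDD9 (0.92) and BCAR1 (0.79) among the increases and SORBS2 (-1.74), TNS2 (-0.69) and TNS3 (-0.49) as the largest decreases. SORBS2 encodes a vinculin-binding adaptor.

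**Figure D4:**
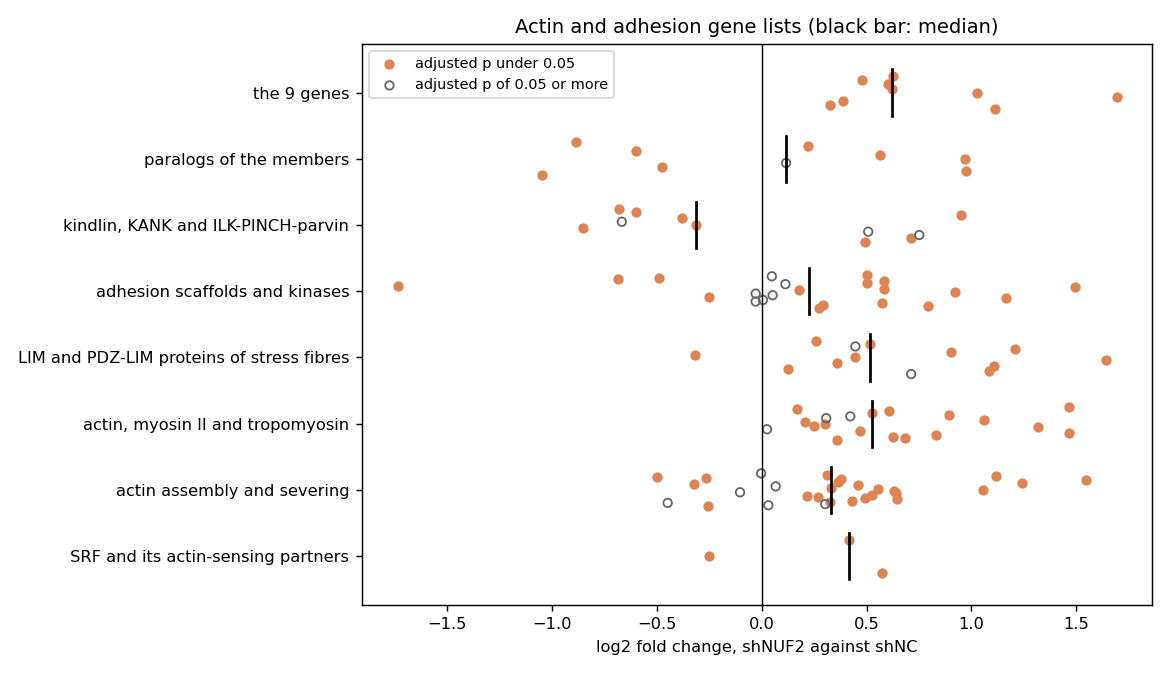
Log2 fold changes (shNUF2 against shNC, horizontal axis) of the 9 genes and of the tested genes in the pathway lists described, one point per gene, filled where the adjusted p was under 0.05, with a black bar at the median. The points of the actin, myosin II and tropomyosin list all lie above 0, and the kindlin, KANK and ILK-PINCH-parvin list has its median at -0.31.

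SRF itself was at 0.42 (SE 0.07, edgeR adjusted p = 1.09e-05), its cofactor MRTFA at 0.58 (SE 0.09, edgeR adjusted p = 1.63e-06) and the cofactor MRTFB at -0.25 (SE 0.07, edgeR adjusted p = 0.00163), all as log2 fold changes. SRF reads were 575, 698 and 867 in the shNC libraries and 823, 783 and 886 in the shNUF2 libraries.

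Fibroblast and smooth muscle markers were mixed. Of 10 such markers 5 were tested, DCN (1.22) and DES (0.82) were higher, COL1A1 (-0.39) and MYH11 (-0.43) were lower, and their summed level was 10.6 to 11.3 FPKM with shNC and 9.37 to 10.6 with shNUF2. Of the epithelial markers, KRT8 (1.04), KRT18 (0.55), PAX8 (0.64) and EPCAM (0.69) were higher, MUC16 (-0.75) and MSLN (-0.75) were lower. Immune and endothelial markers summed to 0.233 to 0.466 FPKM with shNC and 0.509 to 0.800 with shNUF2, with CDH5 going from 1 to 4 reads to 15 to 27 reads, and their part in the increases was not tested.

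The genes whose profile over the 6 libraries was most like the mean of the 9, among 6460 well expressed genes, were MYDGF, CNN3, PALM2AKAP2, CNN2 and ANXA2, with Pearson r of 1.00 for each after rounding. With 2 groups of 3 libraries such values mostly reflect the difference between the groups, and no p is given. CNN2 and CNN3 encode calponins, actin-binding proteins, and were higher by 0.83 and 1.47 on the log2 scale.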

How the data were processed

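RNA of the 6 libraries was extracted with TRIzol and made into stranded mRNA libraries. The authors deposited read counts per gene without normalization, FPKM values and gene lengths in base pairs. The submitters' processing notes name cutadapt, HISAT, HTSeq and build GRCh38.p13. The annotation release and the strand setting of counting are not given in the sources used here, so reads of overlapping, antisense or near-identical genes may be split or dropped. FPKM was proportional to count over length and library total.

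Counts were tested with edgeR 4.0.16 (R 4.3.3): filterByExpr, TMM, quasi-likelihood test, all 6 libraries, no covariate. P-values were adjusted by Benjamini-Hochberg across the 12874 genes tested. Normalized counts are CPM after TMM. SE is the log2 fold change over the square root of F. The fold threshold was log2 fold change beyond 1 with unadjusted p under 0.05. The study's methods give these limits for the fold change without naming a scale, and they were read here as log2. Exact permutation tests were two-sided. The steps were tested on simulated data. Coordinates come from the deposited table, exon overlaps from GENCODE 29, promoter sequences from RefSeq (GRCh38.p14).

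Named were all 9 genes, NUF2, their paralogs, SRF and partners, defining markers, the 5 genes most like the 9 (mean log2 CPM at least 5), and per pathway list up to 4 increases and 3 decreases (adjusted p under 0.05, mean log2 CPM at least 1, no overlap). AP3M1, CAPN12, PXN-AS1, AC245140.3, CDH5 and the markers DCN, DES, COL1A1, MYH11 and TTN were named beside results they touch. Some genes and 1 list that enter the counts are not reported here. The 9 genes and the lists were chosen with earlier results of these data known. Alternatives used DESeq2 1.42.0, limma 3.58.1, other scalings and filters, FPKM values, TREAT, a replicate block and leaving out each library.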

Additional observations from a re-analysis of the deposited data

How the results depend on the processing

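All 9 genes stayed higher with an adjusted p under 0.05 in each of the 15 alternative settings, the largest adjusted p being 7.67e-05 for ACTN4. The number past the fold threshold was 3 except where LIMA1 slipped under it, and was then 2: with library totals alone (0.99), limma on log2(FPKM + 1) (0.93) or log2(FPKM + 0.1) (0.99), and TREAT. FLNC ranged from 1.07 with log2(FPKM + 1) to 1.76, and ZYX from 0.56 to 0.69 when 1 library was left out. With log2(FPKM + 1), 430 genes were higher and 206 lower past the fold threshold, and 8 and 1 of the pathway list genes. With at least 1 CPM in every library, 756 genes were higher, and TREAT left 329 genes lower and 1 pathway list gene lower. The share of signal on the 9 genes differed by 0.0805 points in FPKM and by 0.163 points in reads. Over all genes tested, deviations from the group means correlated at 0.02, 0.00 and -0.03 between same-numbered libraries. Such values show no strong pairing but cannot exclude a small shared effect. A replicate block gave 9 genes higher, 3 of them past the fold threshold, and ACTN1 at 1.11. With the block, edgeR's adjusted p was smaller for each of the 9 genes, at 3.75e-12 against 4.17e-10 for FLNA. FLNC, with 134 to 446 reads per library, had the largest SE of the 9 log2 fold changes (0.11), followed by ZYX (0.06).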
